A study of Mus musculus with 4 samples.

Results

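Retinoic acid receptors and retinoic acid response genes were followed in mouse E14 embryonic stem cells exposed to the histone deacetylase inhibitor valproic acid (VPA). The 9 genes are the receptors Rara, Rarb, Rarg, Rxra and Rxrb, the retinoic acid-degrading enzyme Cyp26a1, the binding proteins Crabp1 and Crabp2, and the germ cell gene Stra8. They were chosen by name, with earlier results of these data known. Each was taken from the probe set whose platform annotation gives that symbol alone. All 9 had exactly 1 such probe set, out of 35556 probe sets on the array, of which 21789 carried 1 symbol and together named 19938 genes. The 2 VPA arrays came from cells with 0.5 mM VPA in the medium for 4 h, and the 2 untreated arrays from cells without it. All cells were of the E14 line and grew over mitomycin-C-arrested primary embryonic fibroblasts, in medium with serum and leukemia inhibitory factor, so each RNA sample may hold some fibroblast RNA. Total RNA was measured on one-colour Affymetrix arrays. Values are log2 signals, on which a difference of 1 is a factor of 2. The labels do not say whether replicates were separate cultures, so each p-value reflects array-to-array spread that could be technical.

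Retinoic acid, made from vitamin A, enters the nucleus and binds a retinoic acid receptor (RAR), which sits on DNA as a pair with a retinoid X receptor (RXR). Without ligand the pair holds corepressors that bring histone deacetylases to the gene, and with ligand these are exchanged for coactivators that acetylate histones. In embryonic stem cells retinoic acid is a classic differentiation signal, and Rarb, Cyp26a1 and Stra8 are among the genes known to be induced by it. The series asks how a low dose of a deacetylase inhibitor, given briefly, alters expression, so these genes carry both the sensor and the output of a deacetylase-linked switch.

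The binding site of an RAR-RXR pair is a direct repeat of a 6-base half-site, and the form with 5 bases between the repeats is called DR5. Promoter windows from RefSeq (build GRCm38.p6, 250 bases before to 50 bases from an annotated start) were at hand for 8 of the 9 genes, 14 windows in all. They were searched on both strands for 4 spellings of the half-site, in direct repeats with 1, 2 or 5 bases between. These spellings were the consensus AGGTCA, the variant of it with T at the third base (that is, AGTTCA), the variant with G at the first base (that is, GGGTCA) and the variant with both changes (that is, GGTTCA). A DR5 was found in the windows of Rarb and Cyp26a1, and no repeat with any of these spacings in the other 12. Crabp2 was the gene without a window. Repeats with other spellings, or outside the windows, would be missed by this search. Of all 32851 windows of this length, 0.0974% hold a DR5, against 43.7% that hold at least 1 half-site. The Rarb and Cyp26a1 windows are shown because they carry this element close to the start, with the DR5 in capitals. The first is chr14:16575427-16575726 on the minus strand, and its DR5 ends 37 bases before the start. The second is chr19:37697558-37697857 on the plus strand. Its DR5 reads on the opposite strand and lies 16 bases before the start.
Rarb: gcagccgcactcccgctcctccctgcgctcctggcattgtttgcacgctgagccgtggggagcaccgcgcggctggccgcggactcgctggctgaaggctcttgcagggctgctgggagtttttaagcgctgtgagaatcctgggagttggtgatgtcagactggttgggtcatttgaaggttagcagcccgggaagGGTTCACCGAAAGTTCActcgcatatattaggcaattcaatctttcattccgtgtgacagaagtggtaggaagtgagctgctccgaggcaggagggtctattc
Cyp26a1: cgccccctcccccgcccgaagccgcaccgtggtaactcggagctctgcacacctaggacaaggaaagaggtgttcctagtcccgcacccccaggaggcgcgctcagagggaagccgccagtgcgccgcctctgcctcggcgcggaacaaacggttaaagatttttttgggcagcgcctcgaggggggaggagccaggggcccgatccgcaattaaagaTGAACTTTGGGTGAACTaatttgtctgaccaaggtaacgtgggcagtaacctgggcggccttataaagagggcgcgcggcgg

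Read in the direction of the repeat, both DR5 elements are 17 bases long and share 15 of them. The differences, counted from the first base of the repeat and written from Rarb to Cyp26a1, are G1A and G9C. The first falls in a half-site and the second in the spacer.
Rarb DR5: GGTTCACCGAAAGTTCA
Cyp26a1 DR5: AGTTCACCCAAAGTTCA
A match describes these letters only, and no binding was measured here.

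The labelled cell type was checked with 10 stem cell markers, whose probe sets lay between the 88.1 and 99.7 percentile of the array, Dppa5a, Tdgf1 and Pou5f1 (Oct4) among them. Across all probe sets Pearson's r was 0.993 between the VPA arrays and 0.991 between the untreated arrays. Untreated replicate 2 stood furthest from the rest: the SD of its difference from the VPA arrays was 0.332 and 0.360, against 0.297 and 0.301 for untreated replicate 1. Each member's difference is given with and without it.

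After 4 h with VPA, 0 of the 9 genes passed the test. The means of all 5 receptor genes were lower in VPA cells, led by Rarg at 0.717-fold and Rara at 0.757-fold of untreated, while the means of Stra8 and Crabp1 were higher. In limma with Benjamini-Hochberg adjustment over all probe sets, 0% of the array was called at an adjusted p of 0.05, and the adjusted p of the 9 genes lay between 0.495 and 0.902. At an unadjusted p under 0.05 there were 2 of the 9, Rara and Rarg, both lower, where 9.19% of all probe sets lay under that value 3.43% with a lower VPA mean and 5.76% with a higher one. The VPA and untreated arrays did not overlap for 6 of the 9 genes, 4 lower and 2 higher, where 40.4% of all probe sets do not overlap, 18.7% lower and 21.7% higher. For the 7 genes other than Rarb and Cyp26a1, every 95% interval of the VPA to untreated signal ratio, taken gene by gene, lay between 0.560-fold and 1.39-fold. Rarb and Cyp26a1 had signals as low as those of olfactory and vomeronasal receptors, so their ratios set no limit on a change of their RNA. An adjusted p above the threshold does not show that a gene stayed the same. In bulk RNA, fewer cells of a type and less RNA per cell cannot be told apart.

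**Figure D1:**
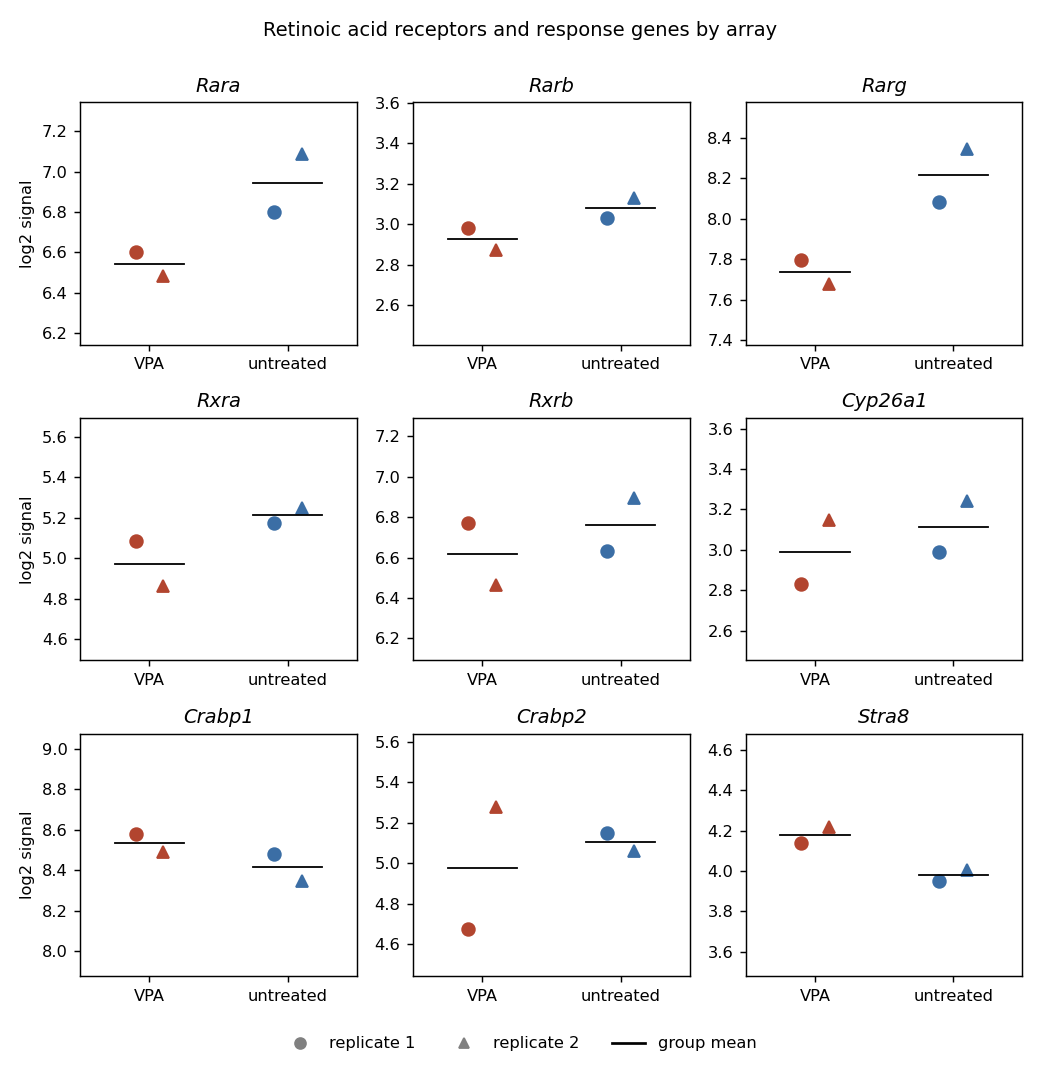
Log2 signal (vertical axes, each spanning 1.2 units) of the 9 genes on the VPA arrays (left, red) and the untreated arrays (right, blue); circles are replicate 1, triangles replicate 2 and bars group means. Rarg and Rara show the widest gaps between the groups, 0.29 and 0.20, while Rxrb, Cyp26a1 and Crabp2 overlap.

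Among the receptors that bind retinoic acid, Rarg encodes RAR gamma, a main RAR of stem cells and early embryos. Its probe set (10432972) gave 7.80 and 7.68 in VPA cells, against 8.08 and 8.35 in untreated cells. Both VPA arrays lay below both untreated arrays, by a gap of 0.29. The VPA mean was 7.74 ± 0.084 and the untreated mean 8.22 ± 0.19 (SD, n = 2 each), a difference of −0.48 ± 0.14 (SE; 95% interval −0.84 to −0.12). The unadjusted p of 0.0182 became an adjusted p of 0.495 in limma. Of all probe sets on the array, 1.93% had a difference as low or lower.

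Rara encodes RAR alpha, the broadly expressed member of the family. It read 6.60 and 6.49 in VPA cells, against 6.80 and 7.09 in untreated cells (probe set 10381082). The groups were again apart, with untreated replicate 2 the highest array and the VPA values less spread (SD 0.081) than the untreated values (SD 0.20). The difference was −0.40 ± 0.14 (SE; 95% interval −0.77 to −0.034), with an unadjusted p of 0.0377 and an adjusted p of 0.526 in limma. Without untreated replicate 2 the difference was −0.26 for Rara and −0.35 for Rarg. Neither gene kept an unadjusted p under 0.05 without that array, nor without VPA replicate 1 or VPA replicate 2.

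Rarb encodes RAR beta, itself a direct target of the receptors through the DR5 shown above. Its signals were 2.98 and 2.87 in VPA cells, against 3.03 and 3.13 in untreated cells (probe set 10417713). The groups were separated by only 0.051, and all 4 values sat low on the array. The difference was −0.15 ± 0.11 (SE; 95% interval −0.45 to 0.14), with an adjusted p of 0.730 in limma, and −0.10 without untreated replicate 2.

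The retinoid X receptors are the DNA-binding partners that RARs share with several other nuclear receptors. Rxra gave 5.09 and 4.86 in VPA cells, against 5.18 and 5.25 in untreated cells (probe set 10470446). The arrays did not overlap, and VPA replicate 2 was the lowest. The difference was −0.24 ± 0.13 (SE; 95% interval −0.57 to 0.090; adjusted p = 0.625 in limma), and was −0.13 without VPA replicate 2 and −0.20 without untreated replicate 2. Rxrb gave 6.77 and 6.46 in VPA cells, against 6.63 and 6.89 in untreated cells (probe set 10444137), so VPA replicate 1 lay between the untreated arrays. Its difference of −0.15 ± 0.16 (SE; 95% interval −0.57 to 0.28; adjusted p = 0.827 in limma) was 0.0082 without VPA replicate 2 and −0.016 without untreated replicate 2.

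The 5 receptors had one array order at their ends. For all 5, untreated replicate 2 was the highest array and VPA replicate 2 the lowest. Over all probe sets, untreated replicate 2 was the highest in 29.3% and VPA replicate 2 the lowest in 25.3%. The share with both ends at once was not counted. Those same arrays were the least alike pair over all probe sets, with a Pearson's r of 0.988. The median difference of the 5 was −0.24, set beside 0.0078 over all probe sets. A lower VPA mean, which the 5 receptors share, was seen in 48.2% of all probe sets.

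**Figure D2:**
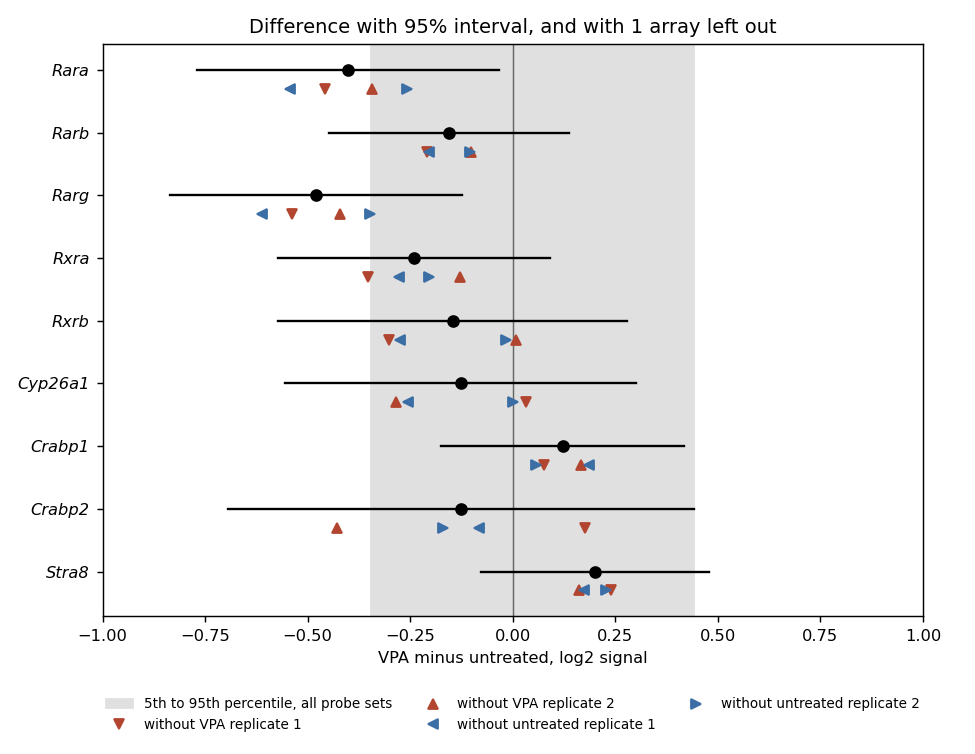
VPA minus untreated difference in log2 signal (horizontal axis) for each gene: black points with 95% intervals from limma, and coloured triangles for the difference with 1 array left out. The grey band spans −0.34 to 0.44, the 5th to 95th percentile of all probe sets; Rarg and Rara lie left of it, and Rxrb, Cyp26a1 and Crabp2 cross 0 when 1 array is left out.

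The cellular retinoic acid-binding proteins carry retinoic acid in the cytoplasm. Crabp1, linked to its sequestration and breakdown, gave 8.58 and 8.49 in VPA cells, against 8.48 and 8.35 in untreated cells (probe set 10585438). The VPA arrays were higher, but the gap to the untreated arrays was 0.011. The difference was 0.12 ± 0.11 (SE; 95% interval −0.17 to 0.42; adjusted p = 0.789 in limma). It was 0.056 without untreated replicate 2 and lay between that and 0.19 with any 1 array left out. Crabp2, which delivers retinoic acid to RARs, gave 4.67 and 5.28 in VPA cells, against 5.15 and 5.06 in untreated cells (probe set 10493108). The VPA arrays enclosed both untreated values, with an SD of 0.43 in VPA cells and 0.063 in untreated cells. Its difference of −0.13 ± 0.22 (SE; 95% interval −0.69 to 0.44; adjusted p = 0.902 in limma) was 0.18 without VPA replicate 1 and −0.17 without untreated replicate 2.

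Cyp26a1 encodes the cytochrome P450 that oxidises retinoic acid and is one of the most sensitive genes to it in embryonic cells. Its signals were 2.83 and 3.15 in VPA cells, against 2.99 and 3.24 in untreated cells (probe set 10462853). The groups overlapped, and the spread inside each exceeded the difference of −0.13 ± 0.17 (SE; 95% interval −0.55 to 0.30; adjusted p = 0.857 in limma). The difference was 0.0012 without untreated replicate 2 and 0.032 without VPA replicate 1. Like Rarb, the other member with a DR5 in its promoter window, Cyp26a1 gave signals within those of olfactory and vomeronasal receptors, so its difference says little about its RNA. Across the array, 31 gene symbols had a window with a DR5 and 11 of them had a probe set of their own, Rarb and Cyp26a1 included. Of these 11, 6 had signals as low as those receptors. In all, 8 had a lower VPA mean and 3 a higher one, 0 passed in limma, and their median difference was −0.098, which was 0.0012 without untreated replicate 2 and −0.018 without VPA replicate 1.

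Stra8, stimulated by retinoic acid, is required for germ cells to enter meiosis. It read 4.14 and 4.22 in VPA cells, against 3.95 and 4.01 in untreated cells (probe set 10537231). Both VPA arrays were above both untreated arrays, by 0.13, and the replicates of each group were close (SD 0.056 in VPA cells and 0.039 in untreated cells). The difference was 0.20 ± 0.11 (SE; 95% interval −0.077 to 0.48; adjusted p = 0.626 in limma) and lay between 0.16 and 0.24 with any 1 array left out, with 0.23 without untreated replicate 2.

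Where each probe set lies on the array was set against 1210 probe sets of olfactory and vomeronasal receptors, genes not expected to be active in stem cells. Probe sets bind with different strength, so these places do not rank the genes by amount of RNA. Over the 4 arrays Rarb lay at percentile 31.0 of all probe sets and Cyp26a1 at 32.6, and 90.9% and 91.6% of the olfactory and vomeronasal probe sets lay below them. Both are therefore within the signals that such receptors give, whose 95th percentile is 3.25. Stra8 lay at percentile 54.4, above 99.4% of that set. The percentiles were 64.7 for Crabp2, 65.1 for Rxra, 79.0 for Rxrb, 79.4 for Rara, 88.2 for Rarg and 91.1 for Crabp1, each above at least 99.9% of that set. No detection calls were used here, so a low signal does not by itself show that a gene was silent.

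**Figure D3:**
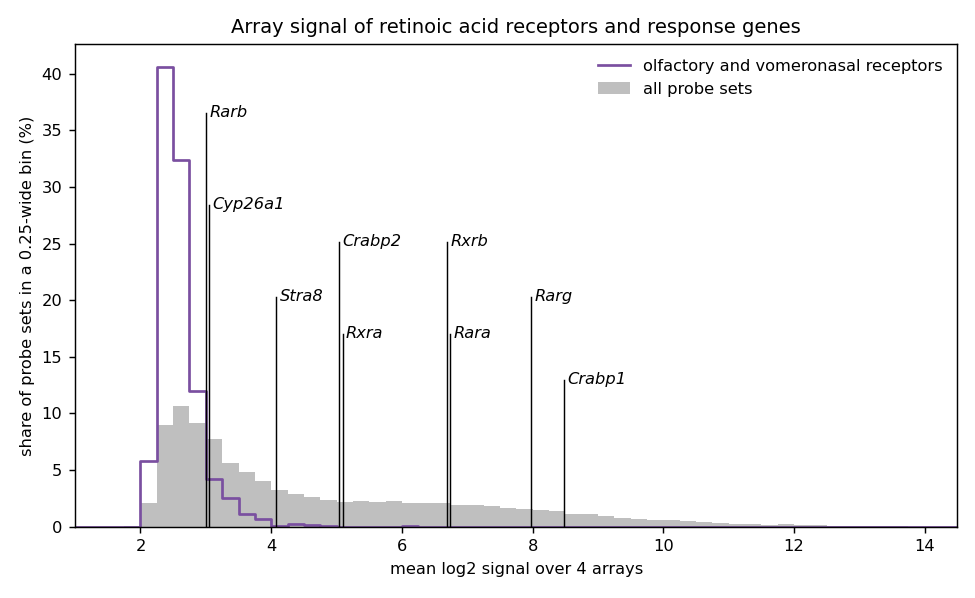
Share of probe sets (vertical axis, %) by mean log2 signal over 4 arrays (horizontal axis), for all probe sets (grey) and for olfactory and vomeronasal receptors (purple line), with the 9 genes marked by black lines of arbitrary height. Rarb and Cyp26a1 stand at the right edge of the receptor peak, and Rarg and Crabp1 far to its right.

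Other genes of the retinoid pathway were read from lists written for this comparison, with earlier results of these data known. Of these genes, 0 passed the adjusted test in limma. Corepressors and coactivators, the proteins that unliganded and liganded receptors recruit, had lower VPA means in 17 of 20 measured genes and a median difference of −0.16. The arrays did not overlap for 12 of the 20, which is 60% against 40.4% of all probe sets, 11 lower and 1 higher. That share was not particular to this list. It was 60% for the reported targets, 50% for clearance and other receptors, and 42.1% for synthesis. Among the marker lists it was 70% (stem cell), 53.8% (fibroblast), 87.5% (endoderm) and 71.4% (neural). Crebbp, an acetyltransferase coactivator, gave 8.09 and 8.04 in VPA cells, against 8.45 and 8.76 in untreated cells, a difference of −0.53 ± 0.14 (SE). Zfp423, a zinc finger cofactor of the RAR-RXR pair, differed by −0.62 ± 0.12. Hdac3, a deacetylase of nuclear receptor corepressor complexes, differed the other way, by 0.30 ± 0.11. The adjusted p of these genes was 0.487, 0.462 and 0.517 in limma.

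Enzymes and carriers that make, move and store retinoids went both ways, with 8 of 19 higher, 11 lower and a median difference of −0.030. Rdh11, a retinal reductase, had the clearest values, 6.72 and 6.82 in VPA cells, against 6.15 and 6.05 in untreated cells. Its groups were well apart at a difference of 0.66 ± 0.11 (SE; adjusted p = 0.462 in limma). Adh7, an alcohol dehydrogenase that can oxidise retinol, differed by 0.30 ± 0.11 at percentile 40.4 of the array. Its mean signal lay above 96.0% of the olfactory and vomeronasal receptor probe sets, so it was only a little brighter than most of them. Rpe65, the retinoid isomerase of the eye, differed by −0.26 ± 0.12 at percentile 6.54. For the retinal dehydrogenase Aldh1a2, which makes retinoic acid in the early embryo, the difference was 0.26 ± 0.21. Rdh10, which makes retinal, differed by −0.0011 ± 0.10. In the list of clearance enzymes, carriers and other nuclear receptors, 6 of 14 were higher and 8 lower, with a median of −0.030. Its genes of smallest p were the orphan receptors Nr2c2 (−0.28 ± 0.12) and Nr2c1 (0.23 ± 0.11) and the vitamin D receptor Vdr (−0.29 ± 0.15). Vdr lay at percentile 43.6 of the array. Cyp26b1, the relative of Cyp26a1, differed by −0.038 ± 0.12.

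Reported retinoic acid targets were split, with 14 of 25 higher, 11 lower and a median difference of 0.018. Btg2, an antiproliferative gene, gave 7.03 and 6.93 in VPA cells, against 6.34 and 6.31 in untreated cells, a difference of 0.66 ± 0.11 (SE). Gata6, a regulator of primitive endoderm, differed by −0.42 ± 0.11 and the homeobox gene Hoxb2 by −0.36 ± 0.12, both below the middle of the array. The adjusted p of these genes was 0.462, 0.485 and 0.510 in limma. The early target Hoxb1 differed by 0.0026 ± 0.11. Germ cell and meiotic genes, which act beside or after Stra8, had higher VPA means in 12 of 14 and a median of 0.15. Their arrays did not overlap for 4 of 14, all higher, or 28.6%, below the 40.4% of all probe sets. Meioc, needed to sustain meiosis, gave 7.13 and 7.08 in VPA cells, against 6.57 and 6.14 in untreated cells, a difference of 0.75 ± 0.17 (adjusted p = 0.472 in limma). Stag3, a meiotic cohesin subunit, differed by 0.28 ± 0.12 and the recombinase Dmc1 by 0.42 ± 0.21. The summed log2 signal of the 14 was 76.0 and 78.7 in VPA cells, against 76.7 and 72.4 in untreated cells, so untreated replicate 2 was the low array and the other untreated array lay between the VPA arrays. The median of the list was 0.088 without untreated replicate 2, 0.037 without VPA replicate 2, 0.29 without VPA replicate 1 and 0.32 without untreated replicate 1.

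**Figure D4:**
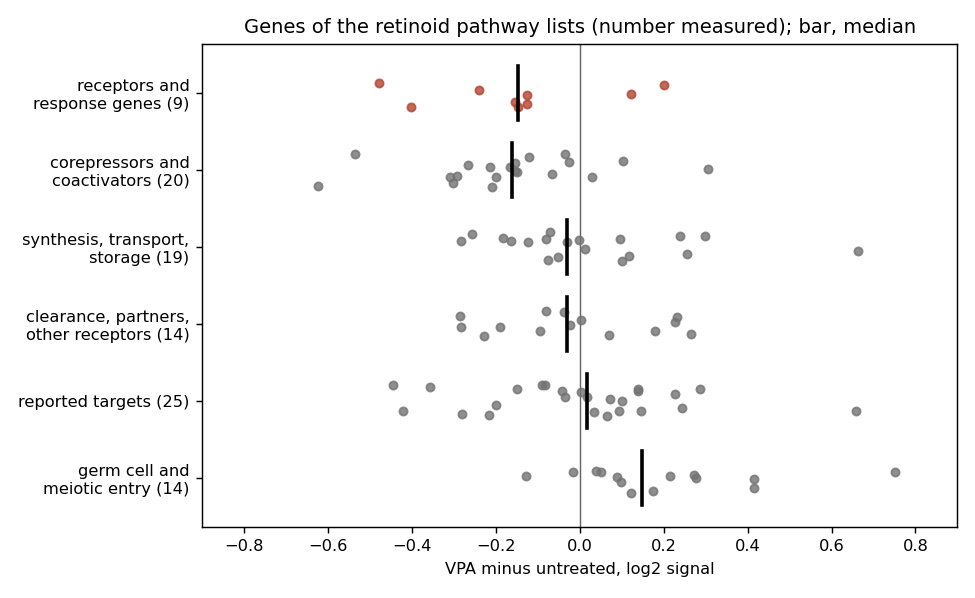
VPA minus untreated difference in log2 signal (horizontal axis) for each measured gene of the receptors and response genes (red) and of 5 lists of the retinoid pathway (grey); points are genes, spread vertically for legibility, and black bars are list medians. Medians run from −0.16 for corepressors and coactivators to 0.15 for germ cell and meiotic genes.

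Rarg, the gene of smallest p, was used to look for like patterns. Likeness was the Euclidean distance between mean-centred log2 values over the 4 arrays, ranked over the other probe sets with 1 symbol. The nearest 3 genes were Abca1 (a cholesterol exporter) at a distance of 0.019, Prr18 at 0.023 and Map3k7cl at 0.029. Map3k7cl had low signals, 3.04 and 2.90 in VPA cells, against 3.28 and 3.57 in untreated cells. These lie around the 95th percentile of olfactory and vomeronasal receptors, 3.25. Rara was at 0.080, the nearest of the other 8 members, followed by Rxra at 0.28, Rarb at 0.34 and Rxrb at 0.36. Their ranks were 10, 959, 1999 and 2350 of 21788, so many probe sets of other genes lay nearer to Rarg than Rxra, Rarb and Rxrb. Stra8 was the farthest, at 0.71. With 4 arrays and this many probe sets, close matches are a description and carry no test.

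Markers of other cells that the cultures could hold were read beside the receptor values. Fibroblast markers, for the feeder layer, had lower VPA means in 10 of 13 measured genes. The other 3 were higher, Thy1 by 0.31, Lum by 0.18 and Dcn by 0.054. The summed log2 signal of the 13 was 58.4 and 57.8 in VPA cells, against 58.4 and 59.3 in untreated cells. Col1a1, Acta2 and Col1a2 had the highest signals, and the groups overlapped for Col1a1 and Col1a2. Primitive endoderm markers, with Lama1, Sox7 and Gata4 of highest signal, were lower in 5 of 8, Lama1 and Sox7 among them. The other 3 were higher, Gata4 by 0.15, Dab2 by 0.36 and Pdgfra by 0.14. The sums of the 8 were 33.1 and 33.8 in VPA cells, against 34.7 and 34.5 in untreated cells. Neural progenitor markers, with Sox1, Hes5 and Nes of highest signal, were lower in 7 of 7, where 48.2% of all probe sets had a lower VPA mean. The sums of the 7 were 26.76 and 26.98 in VPA cells, against 28.50 and 28.23 in untreated cells. Fabp7, Olig2 and Neurog2 had mean signals of 2.77, 2.77 and 3.04, within those of olfactory and vomeronasal receptors. The same held for Sox17 of the endoderm list (3.04) and Postn of the fibroblast list (2.89). Among the fibroblast markers, Lum and Fap lay at percentiles 2.74 and 7.03. The stem cell markers were lower in 7 of 10, with sums of 101.4 and 102.2 in VPA cells, against 103.5 and 102.6 in untreated cells. Nanog had the lowest difference of these markers, −0.48 ± 0.14 (SE; adjusted p = 0.503 in limma). Pou5f1 differed by −0.11 and its groups overlapped. The 3 higher markers were Sox2 by 0.20, Tdgf1 by 0.12 and Dppa5a by 0.11. The sums of the stem cell, endoderm and neural lists did not overlap between the groups, and their part in the receptor values was not tested.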

How the data were processed

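The deposited values are log2 signals for each probe set on each array. The submitters' processing notes name RMA and Affymetrix Expression Console 1.1. RMA subtracts background, makes the arrays' distributions alike by quantile normalization and combines the probes of a set. Which arrays were normalized together, and a genome build, are not given in the sources used here. Values ran from 1.41 to 13.95, with array medians from 3.80 to 3.82. Gene names came from the platform annotation, and all 9 members kept their symbol in the RefSeq table of GRCm38.p6.

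The values were tested as deposited with limma 3.58.1 (lmFit, eBayes; R 4.3.3) over all 35556 probe sets, two-sided, with treatment as the only term. There are 2 residual degrees of freedom and 2.93 more from moderation. With 2 arrays per group the smallest p of an exact permutation test is 0.33. The number of arrays limits the precision. Where list genes had several probe sets, the brightest stood for the gene. Named besides the members were the 3 genes of smallest p of each pathway list, the 3 of highest mean signal of each marker list and the 3 nearest to Rarg. Aldh1a2, Rdh10, Cyp26b1, Hoxb1, Lum, Fap, Nanog, Fabp7, Olig2, Neurog2, Sox17 and Postn were added after their values were seen. The members and lists were chosen with earlier results of these data known. Groups share replicate numbers 1 and 2 in the labels, but the deviations of same-numbered arrays had a correlation of −0.097, so the numbers were not taken as pairs. The limma fit was tested on simulated data, with changes larger than those of the members. The promoter search and the list counts were not tested in this way.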

Additional observations from a re-analysis of the deposited data

How the results depend on the processing

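The differences of Rara, Rarb, Rarg, Rxra, Crabp1 and Stra8 kept their sign under every alternative run, and no member was called under any. The sign turned for Cyp26a1 without untreated replicate 2 (0.0012) and without VPA replicate 1 (0.032), for Crabp2 without VPA replicate 1 (0.18) and for Rxrb without VPA replicate 2 (0.0082), with ranges over arrays left out of −0.29 to 0.032, −0.43 to 0.18 and −0.30 to 0.0082. The members lower at an unadjusted p under 0.05 numbered 2, between 0 and 2 with 1 array left out, 0 without moderation of the variance, and 1 with the replicate block, which changed no adjusted call. Without moderation 1 probe set of the array was called. List medians moved after a second quantile normalization to −0.22 (corepressors and coactivators), −0.049 (clearance and other receptors) and −0.028 (targets), and among the brighter probe sets to −0.0011 (synthesis), 0.10 (clearance and other receptors) and 0.10 (targets). With 1 array left out they ran from −0.22 to −0.13 (corepressors and coactivators), −0.030 to 0.0060 (synthesis), −0.064 to 0.0074 (clearance and other receptors), −0.044 to 0.062 (targets), 0.037 to 0.32 (germ cell genes) and −0.074 to 0.0012 (genes with a DR5). The cause of these shifts was not tested. Rarb and Cyp26a1 fell below the filter on dim probe sets and have no value there, and with 1 probe set per member a mean over probe sets changes nothing. With 1 array left out, the lone array is assumed to vary like the others.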
